A study of Mus musculus with 21 samples.

Results

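The mouse Hox genes lie in 4 clusters, HoxA to HoxD, and 39 gene symbols of the form Hox, a cluster letter and a paralogue number were present among the 48321 symbols of each count table. All 39 were taken, 11 from HoxA, 10 from HoxB, 9 from HoxC and 9 from HoxD, by their symbols and without regard to their values. Hox genes encode homeodomain transcription factors that give cells their position along the head-to-tail axis. Within a cluster they are switched on in the order of their paralogue numbers, with the low numbers active earlier and further forward and the high numbers later and further back. In mouse embryonic stem cells the clusters are known as Polycomb-bound, silent chromatin, and in the embryo the first Hox transcripts appear in the primitive streak and respond to Wnt, FGF and retinoic acid signals.

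The measurements were RNA-seq counts from embryoid bodies, aggregates of differentiating embryonic stem cells, at day 3. All cells were A2loxCre mouse embryonic stem cells with the strain label C57BL/6, a line that carries a doxycycline-inducible site for inserted genes, and there were 7 groups of 3 samples. The parental A2loxCre cells without an insert were given doxycycline. Cells with an integrated Twist1 monomer were measured without doxycycline (uninduced) and with it (induced). The other lines, all with doxycycline, carried a Twist1 homodimer, a Twist1-Tcf3 dimer, a Twist1-Tcf4 dimer or a Twist1-Tcf12 dimer, and induction lasted 16 h. TWIST1 is a basic helix-loop-helix factor that binds E-box sequences as a dimer, with itself or with the E-proteins encoded by Tcf3, Tcf4 and Tcf12. The comparisons ask how the choice of dimer partner changes transcription in early differentiation. Nothing in the labels says that the 3 samples of a group came from separate cultures or that a line was more than 1 clone, so p-values measure only the spread between these samples.

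Totals ran from 6648842 to 15999693 counts per sample. Twist1 reached 613 ± 31.6 CPM (counts scaled to library size with TMM factors; SD, n = 3) in the induced monomer and 182 ± 16.6 CPM in the homodimer, against 8.11 ± 0.789 CPM in the parental line. The heterodimer groups had less of it, with 55.2 ± 2.44 CPM for the Tcf3 dimer, 39.4 ± 2.93 CPM for the Tcf4 dimer and 42.3 ± 5.26 CPM for the Tcf12 dimer, so the induced groups also differed in their Twist1 level. Tcf4 rose in the TCF4 dimer (log2 fold change 2.80 ± 0.15, standard error; adjusted p = 2.22e-10, edgeR). Tcf3 missed the threshold in the libraries labelled as TCF3 dimer (-0.12 ± 0.07, adjusted p = 0.239), and Tcf12 missed it in those labelled as TCF12 dimer (0.50 ± 0.19, adjusted p = 0.0548). These groups are therefore called TCF3-labelled and TCF12-labelled. Against the parental line Tcf12 passed in the TCF3-labelled libraries (0.66 ± 0.19, adjusted p = 0.0119, edgeR). It missed the threshold in the TCF4 dimer (0.45 ± 0.19, adjusted p = 0.132). Against the induced monomer Tcf12 passed in all 3 heterodimer groups (0.51 to 0.72, adjusted p of 0.00863 to 0.0478). The first replicate of the TCF12-labelled libraries stood apart from the other two, with a chi-square per degree of freedom of 85.9 and 105 over genes, and so did the first uninduced monomer replicate, with 35.5 and 39.7. The remaining pairs of replicates lay between 1.42 and 3.80. Without the first TCF12-labelled replicate, the common biological coefficient of variation, the shared estimate of spread, fell from 0.120 to 0.0539. Without any other single library it was 0.105 to 0.124. That replicate thus widened the spread used in every comparison, also in those without its group. For Pbx2 in the induced monomer against the parental line, adjusted p (edgeR) went from 9.54e-05 to 4.34e-08 without it.

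Only 5 of the 39 genes carried enough counts to be tested. Among them are Hoxa10 (chr6:52231197-52240854, GRCm38, minus strand), Hoxb9 (chr11:96271330-96276595, plus strand), Hoxc13 (chr15:102921131-102928814, plus strand) and Hoxd13 (chr2:74668225-74671603, plus strand). Because Hox genes resemble each other most in the homeobox, the stretch of 60 coding bases around its most conserved part is shown for these 4, from the GENCODE M21 transcripts. The capitals mark the match to TGGTTNCA, which encodes the start of the DNA-contacting end of the recognition helix and was found in all 39 genes.
Hoxa10: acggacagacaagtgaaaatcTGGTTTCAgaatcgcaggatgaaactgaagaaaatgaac
Hoxb9: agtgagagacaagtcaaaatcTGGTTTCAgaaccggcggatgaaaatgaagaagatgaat
Hoxc13: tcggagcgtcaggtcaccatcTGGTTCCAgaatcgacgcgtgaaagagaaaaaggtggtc
Hoxd13: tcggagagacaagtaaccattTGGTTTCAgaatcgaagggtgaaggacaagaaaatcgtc
Over these 60 bases any pair of the 4 genes was identical at 40 to 50 positions, and the longest identical run was 17 bases. Of the 39 genes, 34 shared no run of 50 bases with a Hox gene of another cluster, and Hoxa10, Hoxc13 and Hoxd13 shared none with any other gene.

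The clusters were close to silent in every group. The 39 genes together took 2278 of 221587058 counts, or 10.3 CPM. A sample held 73 to 170 Hox counts (median 107), spread over 17 to 27 genes. Divided by library totals, the sum was 8.59 ± 0.771 CPM in the parental line (SD, n = 3, here and below), 13.07 ± 0.41 in the uninduced monomer line, 10.36 ± 1.20 in the induced monomer and 8.21 ± 0.60 in the homodimer. It was 12.20 ± 0.85 in the TCF3-labelled libraries, 10.16 ± 0.46 in the TCF4 dimer and 9.46 ± 0.79 in the TCF12-labelled libraries. In bulk samples, fewer cells that use a gene and less RNA per cell cannot be told apart.

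The largest share of the Hox counts came from Hoxd13 and Hoxc13, at the posterior end of their clusters. Paralogues 10 to 13 held 55.3% of all Hox counts, paralogues 5 to 9 held 25.1% and paralogues 1 to 4 held 19.7%. Paralogue 13 alone held 43.1%, while paralogues 10, 11 and 12 held 8.78%, 2.94% and 0.483%. Hoxd13, whose product patterns the digits and the genital region, had 574 counts, 25.2% of the total. Hoxc13, needed for hair and nails, had 357 (15.7%), while Hoxa13 had 22 and Hoxb13 had 28. Hoxb9 had 170 and Hoxa10 had 144. In the TCF3-labelled libraries the split was flatter, with 40.3% of Hox counts in paralogues 10 to 13, 32.5% in 5 to 9 and 27.1% in 1 to 4. The homodimer and the TCF4 dimer had 64.3% and 63.1% in paralogues 10 to 13. Per kilobase of exon, the parental line had 1.11 CPM of Hoxd13, 0.388 CPM of Hoxc13, 0.167 CPM of Hoxb9 and 0.0879 CPM of Hoxa10. Over all 21 samples Hoxd13 and Hoxc13 also ranked highest of the 39 per kilobase.

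**Figure D1:**
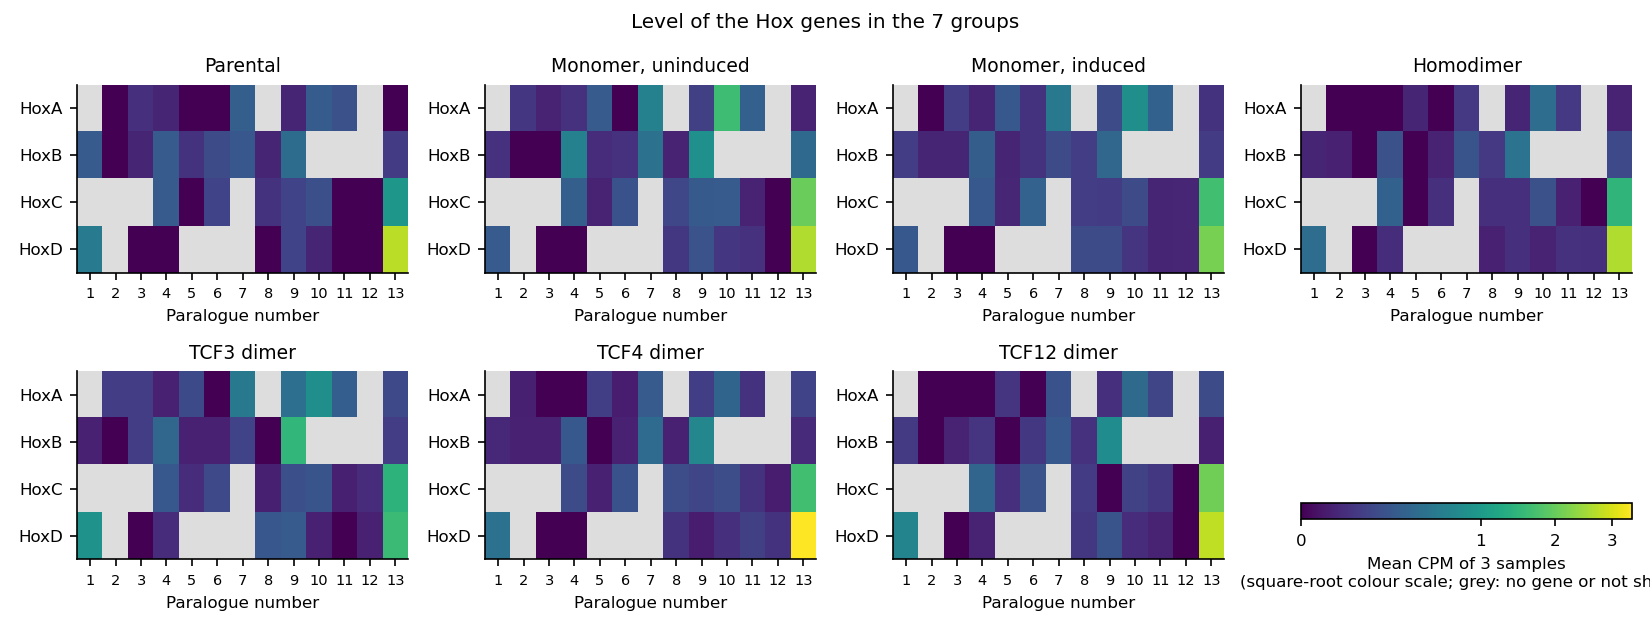
Mean CPM of the Hox genes in the 7 groups (n = 3 each), by cluster (rows) and paralogue number (columns), on a square-root colour scale; grey marks positions without a gene or not shown. Hoxd13 and Hoxc13 are bright in every group, and Hoxa10 and Hoxb9 are bright in some groups only.

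The 34 untested genes had 887 counts in all, a median of 17.5 counts over 21 samples, and never more than 13 in 1 sample. Hoxd3 had 0 counts in all 21 samples, which allows a level of up to 0.0135 CPM over all libraries together, for counting error only. Exons of other genes on the same strand cover 62.3% of the exon bases of Hoxd3 and 52.3% of those of Hoxd4. For Hoxb3, 52.9% lie under exons on the opposite strand. How reads in such overlaps were counted was not given in the sources used here, so the limit does not cover reads lost there. In 19 of the 34 untested genes no sample exceeded 3 counts, the floor used here. That floor equals 0.188 to 0.451 CPM depending on the library. Hoxd1 was the highest of the untested genes with 118 counts, followed by Hoxa7 with 85, Hoxb4 with 65, Hoxc4 with 61 and Hoxb7 with 60. Hoxb1, the HoxB gene that is switched on first in the embryo, had 8 counts in the parental samples and 1 to 3 in each other group.

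The filter matters for reading the tests. A gene was tested if at least 3 samples reached 0.968 CPM before TMM scaling. Hoxd13 reached it in 20 samples and Hoxc13 in 19. Hoxa10 reached it in all 3 uninduced monomer samples and in 2 labelled TCF3 dimer, and nowhere else. Hoxb9 did so in 3 labelled TCF3 dimer and 1 each of 3 other groups. Both genes passed through the groups in which they were high, so counts over the 5 tested genes carry no weight of their own, and each gene is described by its values.

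HoxA split the groups. Summed over its 11 genes, HoxA stood at 3.87 to 4.56 CPM in the uninduced monomer line, 3.15 to 3.64 CPM in the induced monomer and 3.58 to 4.30 CPM in the TCF3-labelled libraries. The parental line had 1.11 to 1.96 CPM, the homodimer 0.720 to 1.62 CPM, the TCF4 dimer 0.941 to 1.82 CPM and the TCF12-labelled libraries 1.15 to 1.61 CPM. The 9 samples of the first 3 groups all lay above the 12 of the others. The same held for the 9 untested HoxA genes. They summed to 1.30 to 2.05 CPM in the uninduced monomer line, 1.35 to 1.93 CPM in the induced monomer and 1.46 to 2.23 CPM in the TCF3-labelled libraries, against at most 0.908 CPM in the parental line, 0.432 CPM in the homodimer, 1.09 CPM with TCF4 and 0.969 CPM in the TCF12-labelled libraries. Hoxa7 gave the most of these counts, with 9 in the parental samples, 18 and 15 in the uninduced and induced monomer, 3 in the homodimer, 20 in those labelled TCF3 dimer, and with 12 for TCF4 and 8 for TCF12. Hoxa5 had 0 counts in the parental samples, 7, 7 and 6 in the uninduced monomer, induced monomer and TCF3-labelled samples, and 1, 5 and 3 in the homodimer, TCF4 and TCF12-labelled samples. In both genes samples of the 3 high groups overlapped with samples of the others. Hoxa9 had 16 counts in the TCF3-labelled samples and 1 to 5 in each other group. No test was made of these sums, which are built from genes of unequal depth.

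The groups with high HoxA were also the groups with high primitive endoderm markers. Primitive endoderm is the extraembryonic layer that forms on the outside of embryoid bodies. All 9 markers passed the filter on low counts. Together the 9 (Gata4, Gata6, Sox17, Sox7, Dab2, Pdgfra, Lama1, Amn and Foxa2) summed to 1184 to 1376 CPM in the uninduced monomer line, 1183 to 1291 CPM in the induced monomer and 745 to 933 CPM in the TCF3-labelled libraries. They summed to 325 to 332 CPM in the parental line, 214 to 237 CPM in the homodimer, 225 to 248 CPM with TCF4 and 207 to 278 CPM in the TCF12-labelled libraries. Against the parental line 8 of 9 rose in each of the monomer groups, and in the TCF3-labelled libraries 8 rose and 1 fell, where 20%, 19.9% and 28.3% of all tested genes passed in the induced monomer, uninduced monomer and TCF3-labelled comparisons. Paraxial mesoderm markers also had their highest means in these 3 groups, with 8 genes summing to 41.2 to 51.6 CPM in the uninduced monomer line, 37.4 to 45.1 CPM in the induced monomer and 35.6 to 37.2 CPM in the TCF3-labelled libraries. The other 4 groups lay between 14.6 and 30.3 CPM except for the first TCF12-labelled replicate at 37.0 CPM, and Msgn1, a defining gene of this tissue, had 0 counts in every sample. All 4 paraxial markers tested rose in the TCF3-labelled libraries (median 3.73), and 1 of 4, Tcf15, rose in each monomer group. Tcf15 gave most of the paraxial sum. Its mean over all samples was 25.6 CPM, against 2.60 CPM for Pax3, 1.17 CPM for Foxc1 and 0.853 CPM for Meox2. In the uninduced monomer line the median log2 fold change of the 4 was -0.03, so there the sum reads mainly Tcf15. Lateral and extraembryonic mesoderm markers followed another order, with 45.3 to 62.7 CPM in the TCF3-labelled and 43.9 to 60.5 CPM in the TCF12-labelled libraries. They summed to 25.7 to 29.7 CPM in the TCF4 dimer and 14.3 to 22.8 CPM in the other groups. Against the parental line 6 of 8 rose in the TCF3-labelled libraries (median 1.82), 7 in the TCF12-labelled libraries (2.18) and 4 in the TCF4 dimer (1.08). Of all tested genes 28.3%, 27% and 12.9% passed in these comparisons. In each monomer group 1 of 8 rose, and in the homodimer 0 rose and 1 fell. The part of these cell types in the HoxA values was not tested.

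**Figure D2:**
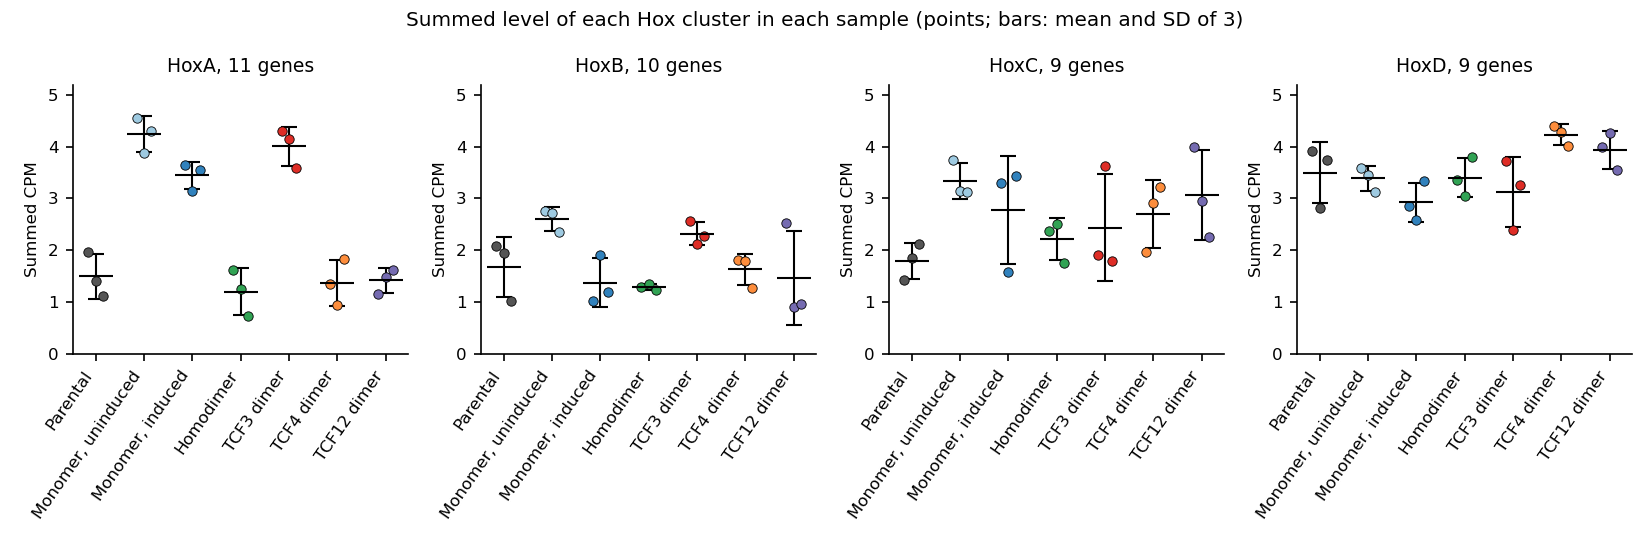
Summed CPM of the 11 HoxA, 10 HoxB, 9 HoxC and 9 HoxD genes in each sample (points), with the mean and SD of 3 samples per group. The 9 HoxA values of the 2 monomer groups and the TCF3-labelled libraries lie above the other 12, while the groups of the other clusters overlap more.

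In the other clusters fewer groups stood clear of one another. HoxB summed to 2.34 to 2.77 CPM in the uninduced monomer line and 2.12 to 2.56 CPM in the TCF3-labelled libraries, against 1.01 to 2.07 CPM in the parental line and 1.23 to 1.35 CPM in the homodimer. HoxC ran from 1.42 to 2.12 CPM in the parental line and from 3.13 to 3.74 CPM in the uninduced monomer line. HoxD held the most counts in the parental line, at 2.82 to 3.92 CPM, and reached 4.01 to 4.40 CPM in the TCF4 dimer without overlap between these groups.

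Hoxa10, an Abd-B-type gene known from the uterus, the vertebrae and blood cells, had its lowest mean in the parental line. Its counts there were 5, 2 and 1 (0.545, 0.217 and 0.101 CPM). In the uninduced monomer line they were 12, 13 and 16 (1.95, 1.36 and 1.56 CPM), each above every parental sample. The difference was 5.43-fold (log2 fold change 2.44 ± 0.46, standard error; adjusted p = 0.000785, edgeR quasi-likelihood test over 14311 genes). It was the only member of the 5 that passed in this comparison, in which 19.9% of all tested genes passed. Hoxa10 reached the filter in all 3 uninduced monomer samples and in 0 parental samples, so it was tested through the group in which it was high. These cells carried the insert but had no doxycycline, and their Twist1 level was 5.07 ± 0.633 CPM.

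In the induced monomer Hoxa10 had 7, 7 and 9 counts (0.797, 0.788 and 0.967 CPM), again with no overlap with the parental line. It was 2.93-fold higher (1.55 ± 0.52, adjusted p = 0.0415) and the only Hox gene to pass, in a comparison where 20% of all tested genes did. This call stood close to the threshold and was lost under DESeq2 (adjusted p = 0.0911) and without the third parental replicate (1.13, adjusted p = 0.188). It passed in 10 of the 21 fits that left out 1 library, and leaving out the second parental or any induced monomer replicate also ended it. Between the induced and the uninduced monomer, the same line with and without doxycycline, 0 of the 5 genes passed at an adjusted p under 0.05 in edgeR, or in DESeq2, and 2 had an unadjusted p under 0.05. In that comparison 2% of all tested genes passed.

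The choice of control mattered for Hoxa10. The parental cells have no insert, and the uninduced monomer line has an insert and no doxycycline. With the latter as control, Hoxa10 was lower in the homodimer (-1.85 ± 0.42, adjusted p = 0.00273), the TCF4 dimer (-2.09 ± 0.40, adjusted p = 0.000474) and the TCF12-labelled libraries (-1.93 ± 0.41, adjusted p = 0.00104). Its counts were 7, 5 and 1 in the homodimer (at most 0.755 CPM), 4, 3 and 8 in the TCF4 dimer (at most 0.487 CPM) and 3, 6 and 5 in the TCF12-labelled libraries (at most 0.492 CPM), all below the 1.36 CPM of the lowest uninduced monomer sample. Against the parental line itself no Hox gene passed in the homodimer, where 8.84% of all tested genes passed, or in the TCF4 dimer, where 12.9% passed. Neither comparison had a Hox gene with an unadjusted p under 0.05 in edgeR, and DESeq2 called 0 in each.

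The RefSeq promoter table (GRCm38.p6) held 24 promoters of 22 of the 39 genes, among them both starts of Hoxa10 and the start of Hoxd13. They are shown, as the 250 bases before each start, because they belong to tested genes that moved in opposite directions in the TCF3-labelled libraries. Capitals mark the E-box CANNTG, which reads the same on both strands.
Hoxa10, chr6:52234940-52235189, minus strand: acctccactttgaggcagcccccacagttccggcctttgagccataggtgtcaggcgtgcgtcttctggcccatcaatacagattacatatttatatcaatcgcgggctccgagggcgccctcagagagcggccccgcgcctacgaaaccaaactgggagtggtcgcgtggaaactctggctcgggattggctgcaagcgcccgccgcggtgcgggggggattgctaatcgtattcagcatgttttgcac
Hoxa10, chr6:52240855-52241104, minus strand: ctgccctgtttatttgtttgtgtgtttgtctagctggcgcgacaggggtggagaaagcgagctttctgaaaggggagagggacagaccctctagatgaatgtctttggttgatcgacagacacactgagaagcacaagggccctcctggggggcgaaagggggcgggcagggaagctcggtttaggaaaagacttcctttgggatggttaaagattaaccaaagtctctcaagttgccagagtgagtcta
Hoxd13, chr2:74667975-74668224, plus strand: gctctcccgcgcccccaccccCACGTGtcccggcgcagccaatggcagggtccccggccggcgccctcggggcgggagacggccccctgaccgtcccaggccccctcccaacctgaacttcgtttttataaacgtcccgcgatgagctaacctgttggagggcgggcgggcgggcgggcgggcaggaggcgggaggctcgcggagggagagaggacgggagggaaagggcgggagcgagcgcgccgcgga
Hoxa10 had no CANNTG in either window and Hoxd13 had 1. Of 32851 promoters of this length, 66.2% held at least 1, as did 17 of the 24 Hox promoters (70.8%).

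In the TCF3-labelled libraries Hoxa10 and Hoxb9 were higher than in the parental line and Hoxd13 was lower. Of all tested genes 28.3% passed in this comparison, 16.3% higher and 12% lower.

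Hoxb9, which helps to pattern the thorax, showed the largest of these changes. Its counts were 21, 12 and 21 (1.74, 1.06 and 1.71 CPM) in the TCF3-labelled samples and 6, 4 and 2 (0.654, 0.434 and 0.202 CPM) in the parental line, without overlap. It was 3.48-fold higher (1.80 ± 0.47, adjusted p = 0.007). Hoxb9 reached the filter in all 3 of these TCF3-labelled samples and in 0 parental samples. HoxB lies on chromosome 11, where the 1117 tested genes had a median log2 fold change of 0.20 in this comparison and 30.3% of them passed as higher. The part of that chromosome-wide shift in the Hoxb9 value was not tested.

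Hoxa10 had 7, 11 and 12 counts (0.579, 0.971 and 0.976 CPM) in the TCF3-labelled samples, just above the highest parental sample, and was 2.89-fold higher (1.53 ± 0.50, adjusted p = 0.027). Hoxd13 went the other way, from 26, 21 and 31 counts (2.83, 2.28 and 3.13 CPM) to 25, 10 and 22 (2.07, 0.883 and 1.79 CPM). Its level fell to 0.58 of the parental level (-0.79 ± 0.23, adjusted p = 0.015).

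These calls leaned on single libraries. Without the third parental replicate none of them passed, with adjusted p of 0.0507 for Hoxb9, 0.0691 for Hoxd13 and 0.144 for Hoxa10. Without the second replicate labelled TCF3 dimer, Hoxb9 passed and Hoxa10 (adjusted p = 0.0779) and Hoxd13 (0.133) did not. Hoxa10 was also lost without the third TCF3-labelled replicate (0.0816) or without the second parental replicate (0.0989). DESeq2 did not call Hoxa10 (0.0724). With the uninduced monomer line as control only Hoxd13 passed (-0.72 ± 0.24, adjusted p = 0.0276), and Hoxa10 turned to -0.91 ± 0.35 (adjusted p = 0.0613).

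**Figure D3:**
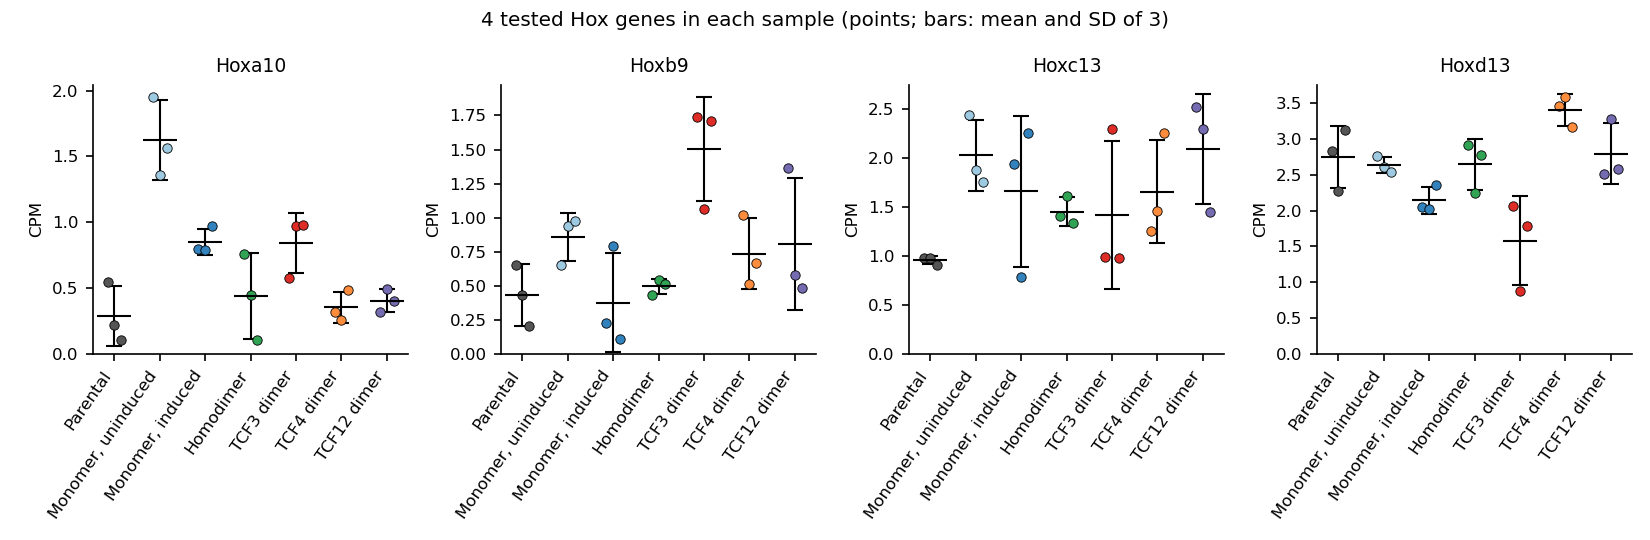
CPM of Hoxa10, Hoxb9, Hoxc13 and Hoxd13 in each of the 21 samples (points), with the mean and SD of 3 samples per group. The uninduced monomer samples of Hoxa10 (1.36 to 1.95 CPM) lie above every parental sample, and the TCF3-labelled samples of Hoxb9 (1.06 to 1.74 CPM) lie above every parental and induced monomer sample.

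In the TCF12-labelled libraries only Hoxc13 passed against the parental line, where 27% of all tested genes did. Its counts were 24, 28 and 18 (2.52, 2.30 and 1.45 CPM) against 9, 9 and 9 (0.981, 0.976 and 0.908 CPM), with no overlap, and it was 2.15-fold higher (1.10 ± 0.39, adjusted p = 0.0425). This call was lost without the first replicate labelled TCF12 dimer, the library that stood apart (0.96, adjusted p = 0.0712), without the second (1.00, adjusted p = 0.0898), and without any of the 3 parental replicates (adjusted p of 0.0895 to 0.116). It passed in 9 of the 21 fits that left out 1 library. With the uninduced monomer line as control the difference was 0.06 ± 0.35 (1.04-fold, adjusted p = 0.907). The parental line had the lowest mean level of Hoxc13 of the 7 groups, 0.95 ± 0.04 CPM. The other groups ran from 1.42 ± 0.76 CPM in the TCF3-labelled libraries to 2.09 ± 0.56 CPM in those labelled TCF12 dimer. All comparisons against the parental line share the same 3 parental samples.

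Measured against the induced monomer, Hoxb9 and Hoxd13 differed. Hoxb9 was 3.97-fold higher in the TCF3-labelled libraries (1.99 ± 0.49, adjusted p = 0.00617) than in the induced monomer, where its counts were 2, 7 and 1 (0.228, 0.788 and 0.107 CPM). No other Hox gene passed in that comparison, in which 22.1% of all tested genes did. This call held in all 28 other settings and sample sets that were tried, with adjusted p of at most 0.0449. Those refits reuse the same samples and are no separate support. Hoxb9 reached the filter in all 3 TCF3-labelled samples and in 0 of the induced monomer. Chromosome 11 genes had a median log2 difference of 0.20 here too.

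Hoxd13 was higher in the TCF4 dimer than in the induced monomer. Its counts were 44, 42 and 52 (3.46, 3.59 and 3.16 CPM) against 18, 18 and 22 (2.05, 2.03 and 2.36 CPM), with no overlap, a 1.58-fold difference (0.66 ± 0.21, adjusted p = 0.0279). The call was lost under DESeq2 (adjusted p = 0.0747), without the filter on low counts (0.0656) and without the first or second replicate of either group, with adjusted p of up to 0.0893. Of all tested genes 27.4% passed in this comparison. In the TCF12-labelled libraries, where 33.5% of all tested genes passed against the induced monomer, Hoxa10, Hoxb9, Hoxc13 and Hoxd13 did not pass.

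No Hox gene passed between the homodimer and the induced monomer in edgeR or DESeq2, where 18.5% of all tested genes passed in edgeR, and 1 had an unadjusted p under 0.05. Between the heterodimers together and the homodimer, with 14% of all tested genes past the threshold, 0 Hox genes passed in either tool and 1 had an unadjusted p under 0.05.

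The 3 heterodimer groups differed from one another in Hoxd13 (adjusted p = 0.0032) by edgeR's quasi-likelihood test of any difference, which 26% of all tested genes passed. It averaged 1.58 ± 0.62 CPM in the TCF3-labelled libraries, 2.79 ± 0.42 CPM in those labelled TCF12 dimer and 3.41 ± 0.22 CPM in the TCF4 dimer. The TCF3-labelled samples overlapped with neither of the other two groups, while the TCF4 and TCF12-labelled samples overlapped. Without the first replicate labelled TCF12 dimer Hoxd13 still passed (adjusted p = 0.000632), and it was lost when only the groups compared were fitted (0.082).

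**Figure D4:**
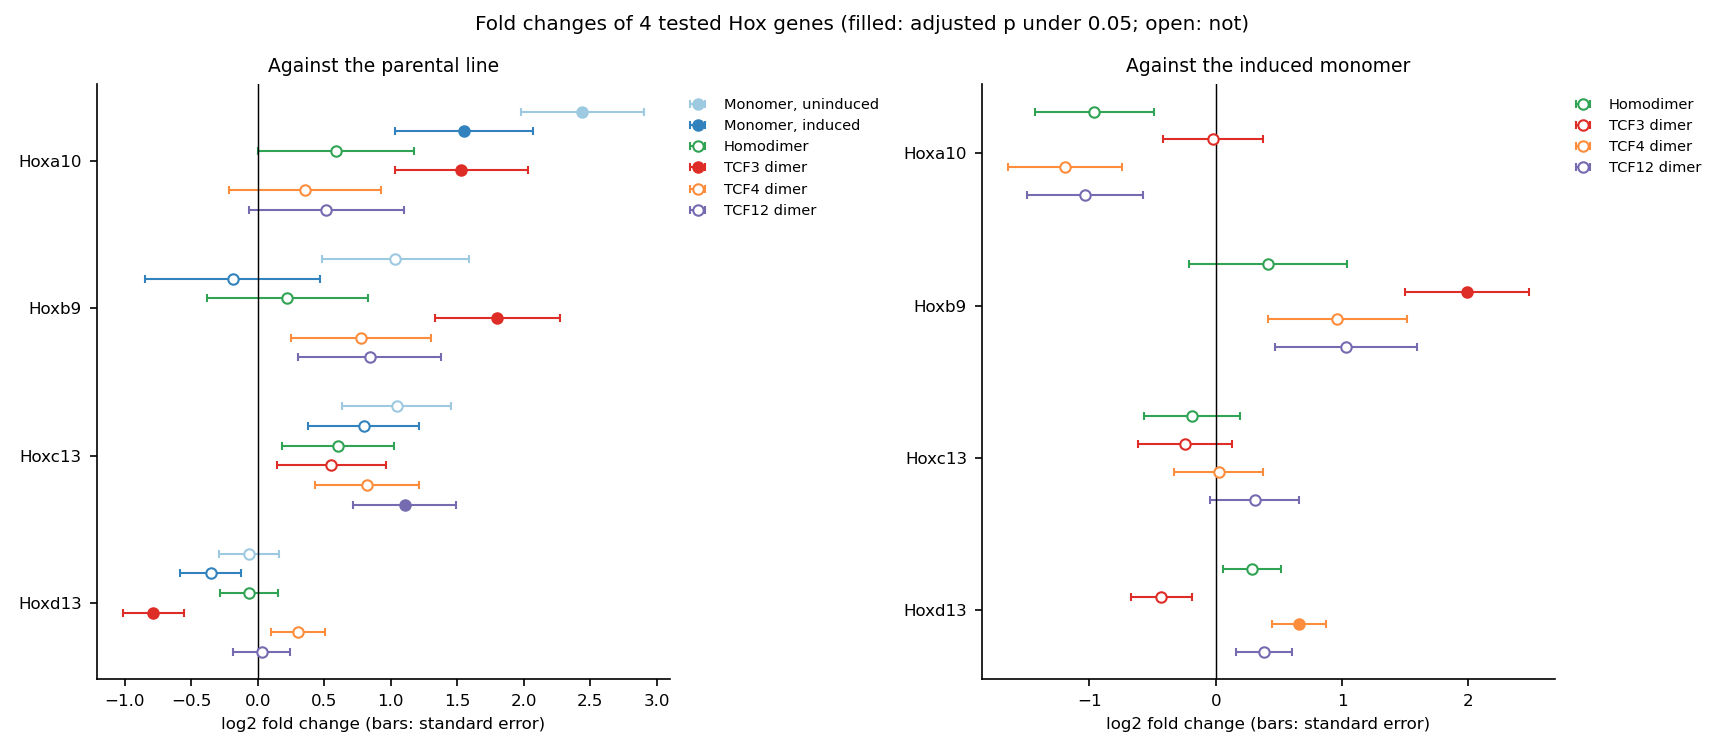
Log2 fold changes with standard errors of Hoxa10, Hoxb9, Hoxc13 and Hoxd13 against the parental line (left) and against the induced monomer (right). Filled points passed at an adjusted p under 0.05 in edgeR; Hoxa10 in the uninduced monomer line (2.44) is farthest to the right on the left side and Hoxb9 in the TCF3-labelled libraries (1.99) on the right side.

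When every gene with a count was tested, Hoxa9 and Hoxd8, both below the filter, rose in the TCF3-labelled samples against the parental line. Hoxd1, also below it, rose there against the induced monomer only. The share of all genes that passed in this fit is not given here, so the number of these genes carries no weight. Hoxa9 had 5, 8 and 3 counts there against 1, 0 and 0 in the parental line (3.30, adjusted p = 0.0201 in edgeR without the filter, 0.0481 in DESeq2). Hoxd8, with 4, 2 and 3 counts, is to be read against a parental group at 0, whose 3 libraries together allow no more than 3 counts, and its adjusted p was 0.0415 in edgeR without the filter. Hoxd1, the HoxD gene at the anterior end, had 13, 11 and 8 counts against 3, 1 and 3 in the induced monomer (1.76, adjusted p = 0.0209; 0.0429 in DESeq2). These genes were singled out after their values were seen.

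At the outer edge of HoxA, Evx1 fell in every line with an insert. Evx1 is a homeobox gene 52.6 kb beyond Hoxa13 that is switched on in the posterior primitive streak. It had 48, 64 and 72 counts (5.23, 6.94 and 7.27 CPM) in the parental line and 0 to 10 counts in every other sample. It fell against the parental line in all 6 comparisons, by 3.07 on the log2 scale in the homodimer (adjusted p = 1.93e-05) and by more in the other 5. Hoxa13 next to it had 0 counts in the parental samples and 6 in each heterodimer group. Skap2, a signalling adaptor gene at the other edge, rose by at most 0.63 (TCF3-labelled, adjusted p = 2.16e-05) and passed as higher in 5 of the 6 comparisons, all but the homodimer. Of these calls, 3 were lost under some settings: the TCF4 dimer (0.34) without the filter on low counts and without the first or the third parental or the second TCF4 replicate (adjusted p up to 0.102), the TCF12-labelled libraries (0.40) when only the groups compared were fitted (0.171), and the uninduced line (0.35) with library size alone, without the filter or without the third parental replicate (up to 0.0779). Over the 10 tested genes beside the 4 clusters, 1 to 4 (10% to 40%) passed against the parental line in each comparison, beside 8.84% to 28.3% of all tested genes, and the medians lay between -0.03 and 0.15. Evx2, 6.71 kb from Hoxd13, had 1 count in all samples.

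Of the 16 noncoding and host genes inside or beside the clusters that were present in the tables, only Halr1 was tested. It is a noncoding transcript beside HoxA (chr6:52102949-52113684). Its counts were 18, 13 and 26 in the TCF3-labelled samples (1.49, 1.15 and 2.11 CPM) and 4, 2 and 4 in the parental line (0.436, 0.217 and 0.404 CPM), a log2 difference of 2.14 (adjusted p = 0.000469). The uninduced monomer line also had more of it (1.42, adjusted p = 0.0372), where the samples held 6, 11 and 8 counts. That call was lost under DESeq2 (0.0984), without the filter (0.0847), without any 1 of the parental replicates (0.0618 to 0.144) and without the first or second uninduced replicate (0.0748 and 0.153). Hotair had 1 count in all 21 samples, and Hottip, Hoxb3os, Mir10a, Mir10b and Mir196a-2 had 0.

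**Figure D5:**
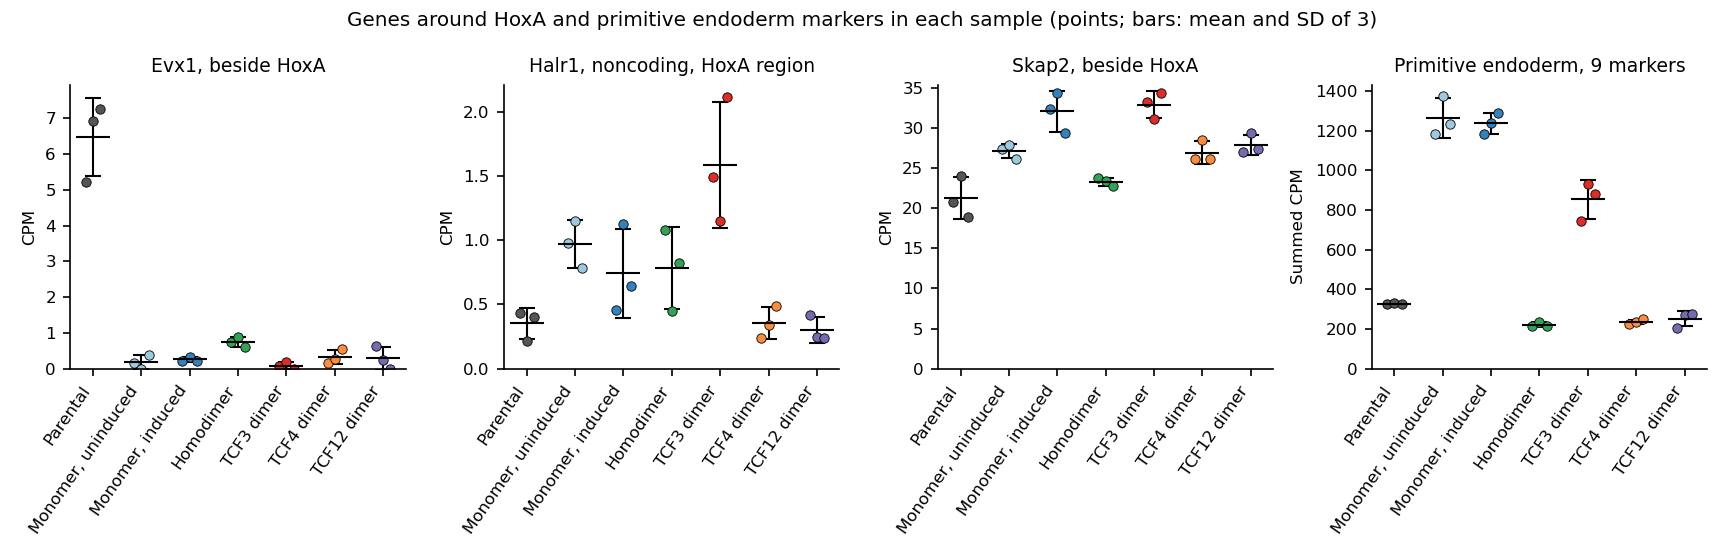
CPM of Evx1, Halr1 and Skap2 and the summed CPM of 9 primitive endoderm markers in each sample (points), with the mean and SD of 3 samples per group. Evx1 is above 5 CPM in the parental line only, Halr1 has its highest mean in the TCF3-labelled libraries, and the markers are above 700 CPM in the monomer groups and the TCF3-labelled libraries only.

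The caudal factors and posterior signals that act upstream of Hox genes in the embryo were mostly lower in every line with an insert. Of 12 tested genes, 9 fell and 2 rose in the induced monomer against the parental line, with a median log2 fold change of -2.39. In the uninduced monomer line 7 fell and 2 rose (median -2.42), in the homodimer 8 fell and 1 rose (-1.29), and in the TCF3-labelled libraries, the TCF4 dimer and the TCF12-labelled libraries 8, 9 and 9 fell and none rose (-2.09, -2.27 and -1.62). These were 66.7% to 91.7% of the list, beside 8.84% to 28.3% of all tested genes, and the medians over all genes lay between 0.00 and 0.02. Fgf8, which keeps the posterior progenitors proliferating, went from 25.4 ± 2.58 CPM in the parental line to 3.74 ± 0.504 CPM or less in the other groups. T, the brachyury gene of the primitive streak, went from 26.1 ± 3.05 CPM to 9.68 ± 1.81 CPM in the homodimer and 1.63 ± 0.512 CPM or less elsewhere. Wnt5b fell in all 6 comparisons, while Fgf4, a pluripotent-cell FGF, rose in both monomer groups and the homodimer and fell in the TCF4 dimer (-0.27, adjusted p = 0.0318). That fall was lost without the filter (0.249), with library size alone (0.0598), without the first or the third parental replicate (0.126 and 0.0841) and without the third TCF4 replicate (0.156). Cdx1 and Cdx4, caudal factors that bind Hox promoters, were untested, with at most 6 counts each in any group. Cdx2, named here after its values were seen, had a parental level of 1.48 ± 0.243 CPM and fell in the TCF3-labelled libraries (-1.13, adjusted p = 0.0403), the TCF4 dimer (-1.57, 0.0145) and the TCF12-labelled libraries (-1.31, 0.0259). All 3 calls were lost without the second or the third parental replicate (adjusted p of 0.0595 to 0.111). They were also lost without any 1 of the replicates labelled TCF3 dimer (up to 0.128), without the first or the third TCF4 replicate (up to 0.0825) and without the second or the third labelled TCF12 dimer (up to 0.0838) in the comparison each belongs to, and without the first labelled TCF12 dimer the fall there was -2.15. DESeq2 (0.0742), no filter (0.0545) and leaving out the first TCF4 replicate (0.0507) each ended the TCF3-labelled call, and a fit of only the groups compared ended the TCF12-labelled one (0.244). Primitive streak markers, which include T, Fgf8 and Evx1, summed to 210 to 252 CPM in the parental samples and to 22.9 to 50.7 CPM in all others. Their part in the fall of these signals was not tested.

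In the retinoic acid pathway the members moved apart. Of 14 tested genes, 3 rose and 1 fell in the induced monomer, 6 rose and 2 fell in the TCF3-labelled libraries, 5 rose and 2 fell in the TCF4 dimer and 6 rose and 1 fell in the TCF12-labelled libraries. In the homodimer 3 rose and 2 fell, and in the uninduced monomer line 3 rose and 4 fell. The share that passed was 28.6% in the induced monomer (20% of all tested genes), 57.1% in the TCF3-labelled libraries (28.3%), 50% in the TCF4 dimer (12.9%), 50% in the TCF12-labelled libraries (27%), 35.7% in the homodimer (8.84%) and 50% in the uninduced line (19.9%). Cyp26a1, which breaks down retinoic acid and is itself a retinoic acid target, averaged 31.6 ± 3.10 CPM without and 27.3 ± 1.03 CPM with induction of the monomer, against 15.0 ± 1.12 CPM in the parental line. It fell in the homodimer, the TCF4 dimer and the TCF12-labelled libraries, to 5.90 ± 0.942, 3.38 ± 0.879 and 4.33 ± 1.80 CPM. The receptor gene Rxra rose in the TCF3-labelled (0.53, adjusted p = 5e-04) and TCF12-labelled libraries (0.51, adjusted p = 0.00112) and fell in both monomer groups. The carrier gene Crabp2 fell in the uninduced monomer line (-0.82, adjusted p = 0.00716, edgeR) and the homodimer (-0.79, adjusted p = 0.0151). The homodimer call was lost in 3 of 28 other settings and sample sets. Crabp2 rose in the TCF4 dimer (0.81, adjusted p = 0.00541) and the TCF12-labelled libraries (1.08, adjusted p = 0.000276), where its samples had 59.9, 32.6 and 31.5 CPM. The first of these is the library that stood apart, and without it the rise was 0.72 (adjusted p = 1.2e-06). When only the groups compared were fitted, neither Crabp2 (0.078) nor Rxra (0.0776) passed in the TCF12-labelled libraries.

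Among the TALE homeodomain cofactors, which bind DNA together with Hox proteins, Pknox2 changed most. It rose from 0.740 ± 0.0809 CPM in the parental line to 2.27 ± 0.522 CPM in the induced monomer, 5.13 ± 0.761 CPM in the homodimer and 8.82 ± 1.51 to 12.9 ± 1.96 CPM in the heterodimers, and stood at 0.649 ± 0.230 CPM in the uninduced monomer line. Pbx2 and Pbx3 fell in both monomer groups by 0.43 to 0.86 on the log2 scale. Both also fell in the homodimer (-0.36 and -0.45, adjusted p = 0.00946 and 0.00605, edgeR). The same held in the TCF3-labelled libraries (-0.28 and -0.40, adjusted p = 0.0192 and 0.0051). The Pbx2 calls in these 2 groups were lost in 2 and 3 of 28 other settings and sample sets. Of the 9 cofactors, 6 passed in the induced monomer (2 higher, 4 lower), 4 in the homodimer (1 and 3), 4 in the TCF3-labelled libraries (2 and 2), 1 each in the TCF4 dimer and the TCF12-labelled libraries (Pknox2, higher) and 4 in the uninduced monomer line (all lower). These are 66.7%, 44.4%, 44.4%, 11.1%, 11.1% and 44.4% of the list, beside 20%, 8.84%, 28.3%, 12.9%, 27% and 19.9% of all tested genes, so in the TCF4 dimer and the TCF12-labelled libraries the share was below that over all genes. Meis1, named after its values were seen, had 62 counts in the TCF3-labelled samples and 9 in the parental line (2.40, adjusted p = 0.00135).

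The Polycomb and trithorax genes, whose products keep Hox genes off and on, passed about as often as all tested genes, and their counts say nothing particular about them. All 25 were tested, and against the parental line 5 (20%) passed in each monomer group, beside 20% of all tested genes with and 19.9% without induction. In the homodimer 2 passed (8%, beside 8.84%), in the TCF3-labelled libraries 7 (28%, beside 28.3%), in the TCF4 dimer 4 (16%, beside 12.9%) and in the TCF12-labelled libraries 8 (32%, beside 27%), with medians between -0.05 and 0.14. Cbx2, a Polycomb subunit, rose in the homodimer (0.69, adjusted p = 8.94e-05) and in the TCF4 dimer (0.56, adjusted p = 0.000555), and fell in the uninduced monomer line (-0.46, adjusted p = 0.0027). It also passed in the TCF3-labelled libraries (0.29, adjusted p = 0.0378), a call lost in 13 of 28 other settings and sample sets, among them those without the second parental replicate (0.14, adjusted p = 0.278), the third parental replicate (0.0583) and the first or the third TCF3-labelled replicate (0.135 and 0.057). In the TCF12-labelled libraries it passed (0.45, adjusted p = 0.00267) except when only the groups compared were fitted (0.18), and its fall in the induced monomer (-0.33, adjusted p = 0.0271) was lost in 5 of 28. Phc2 fell in both monomer groups and rose in the TCF12-labelled libraries (0.64, adjusted p = 0.00167), where its samples had 118, 75.6 and 77.2 CPM. Without the first of these, the library that stood apart, the rise was 0.40 (adjusted p = 0.000232), and it was lost when only the groups compared were fitted (0.15).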

How the data were processed

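Poly(A) RNA of 21 samples was sequenced with a TruSeq mRNA kit, and the authors deposited raw counts per gene symbol, 1 table a sample. FastQC, TopHat2 and HTSeq with mm10/GRCm38 are named, per the submitters' processing notes; versions, annotation and strand setting were not given in the sources used here. Dates had replaced 25 symbols in the tables of 18 samples, so tables were joined by position. The 21 samples were fitted together with edgeR 4.0.16 (R 4.3.3): genes kept by filterByExpr (minimum count 10, minimum total 15), TMM factors, a quasi-likelihood F-test with 14 residual degrees of freedom, and Benjamini-Hochberg adjustment over 14311 genes, with a threshold of 0.05. DESeq2 1.42.0 was an alternative, as were other scalings, filters, controls and leaving out each replicate. The test was checked on simulated counts. CPM values are TMM-scaled, except the sum over all 39 genes, which uses library totals. A limit of 3 counts was used where a gene was at 0, and it covers counting error only.

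Members and lists were chosen with earlier results of these data known. Of each list at most 4 genes are named, those that passed in the most comparisons, with ties by mean CPM. Gene positions and promoters came from RefSeq (GRCm38.p6), which matched all 39 symbols, and coding sequences and exon lengths from GENCODE M21. The values of 1 tested Hox gene and of 1 cofactor are not reported here, but both are in the counts and sums.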

Additional observations from a re-analysis of the deposited data

How the results depend on the processing

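The number of Hox genes past the threshold was small and moved with the settings. Scaling by library size alone, and adding the replicate block, each gave 0 for the induced monomer (1 in the report) and 0 for the TCF12-labelled libraries (1) against the parental line. Testing every gene without the filter gave 0 for the induced monomer, 2 for the TCF3-labelled libraries against the monomer (1) and 1 for the TCF4 dimer against the monomer (2), and DESeq2 gave the same 0, 2 and 1. Fits of only the groups compared gave 0 for the induced monomer, 0 for the TCF12-labelled libraries and 2 for the uninduced line (1) against the parental line, 1 for TCF4 (2) and 0 for TCF12 (1) against the monomer, and 1 among the heterodimers (2). With the uninduced monomer line as control, 1 passed in the homodimer (0), 1 in the TCF3-labelled libraries (4), 2 in the TCF4 dimer (0) and 2 in the TCF12-labelled libraries (1), where Hoxc13 was not among them, and Hoxa10 in the TCF3-labelled libraries turned to -0.91. The share of all tested genes that passed under each of these settings is not given here. The counts are therefore not read as a result about Hox genes, and the cause of their moves was not tested.

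Leaving out 1 library at a time gave 0 to 1 for the induced monomer, 0 to 4 for TCF3, 0 to 1 for TCF12 and 1 to 2 for the uninduced line against the parental line. Against the monomer it gave 1 to 2 for TCF3, 1 to 3 for TCF4 and 1 to 2 for TCF12, and among the heterodimers 2 to 3. The other comparisons stayed at 0 to 0. For these fits too the share over all tested genes is not given. Of the 13 calls, RLE factors and a filter of 1 CPM in 3 samples each kept 13, and 237 of 273 leave-one-out values kept theirs. The labels tie replicate numbers to no shared source, and same-numbered samples of different groups correlated at -0.221 to 0.344 (mean 0.0214 over 63 pairs, against -0.0102 over 126 pairs of different numbers), so they were not treated as paired. As a hint from the data only, 12 of 21 samples correlated best with their own number, where 7 would do so if the 3 numbers were equally likely. With 73 to 170 Hox counts per sample, changes in the 34 untested genes were mostly not detectable at this depth.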
